A study of Mus musculus with 6 samples.

Results

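The genes described here are 39 genes of the G2 and M phases of the cell cycle, listed by symbol and found in the deposited count table through their Ensembl identifiers in GENCODE M21, out of 53465 genes in that table. All 39 were found, and all 39 passed the filter on low counts, which kept 8200 genes. The table holds ribosome-protected fragments, short mRNA pieces left after nuclease digestion around ribosomes, so a gene's value reflects its mRNA amount and its ribosome occupancy together. The cells were ID8, a mouse ovarian cancer cell line that arose from surface epithelium. The 3 libraries titled WT are taken as cells given a control guide RNA (sgNC) and the 3 titled KO as cells given a guide against Nat10 (sgNat10), the enzyme that places N4-acetylcytidine on RNA. All 6 libraries were treated with cycloheximide before harvest. The samples' own labels give only ID8 with WT or KO, and the guides come from the series' design text. The guide's sequence, the nuclease, and whether the edited cells were 1 clone or a pool are not stated. Nor is it stated that replicates were separate cultures, and p-values then reflect the spread among these libraries alone, which may be technical.

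Entry into mitosis is driven by the kinase CDK1, which is active when bound to cyclin A or cyclin B and freed of inhibitory phosphates by CDC25 phosphatases. Polo and Aurora kinases, kinetochore proteins and motor proteins then build the spindle, the spindle checkpoint holds the anaphase-promoting complex (APC/C) back until chromosomes are attached, and a central spindle guides division of the cytoplasm. Most of these genes are transcribed late in the cycle under repressor and activator complexes that bind a short promoter element called the cell cycle genes homology region, together with the factor NF-Y at CCAAT boxes. In a bulk culture their summed level follows both the share of cells in G2 and M and the amount made per cell, and these cannot be told apart here.

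Total counts were 1687466, 2148715 and 1811225 in WT libraries and 2541273, 2234305 and 3126208 in KO libraries. In each library the number of genes at each count had a local peak well above 1 read. This peak is the modal count of that library, and counts divided by it are given as molecule equivalents. Modal counts were 15, 21 and 39 in WT and 42, 46 and 60 in KO. Total and modal count were both higher in every KO library than in any WT library. Read depth and group therefore cannot be told apart in these libraries. In molecule equivalents the totals were 112498, 102320 and 46442 in WT and 60506, 48572 and 52103 in KO, so by that measure the groups overlapped. Levels are in CPM, counts divided by library size (adjusted by the trimmed mean of M-values, TMM) on a common scale. The TMM factors were 0.985, 0.94 and 0.964 in WT and 1.018, 1.056 and 1.042 in KO. Relative to library totals alone, this scaling raised every WT level and lowered every KO level. Nat10, the targeted gene, was at 112 ± 53.1 CPM (SD, n = 3) in WT against 106 ± 43.1 CPM for KO, with a log2 fold change of -0.07 (SE 0.48, 95% interval -1.09 to 0.94), so no loss of its fragments was detected and directions refer to the libraries labelled KO. Of 8 mesothelial markers 7 were tested and Krt7 had counts in 1 library alone. The 6 leukocyte and 4 endothelial markers were all too low to test, at 29 counts or fewer in each library. The mesothelial markers did not keep 1 level between the groups: Krt18 and Krt19 fell and Msln rose (edgeR adjusted p = 0.0195, 0.0044 and 0.0145), and the part of this in the values below was not tested.

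The summed footprint level of the 39 genes was lower in every library labelled KO than in any labelled WT. The sums were 12277, 11071 and 10771 CPM in WT against 8918, 9218 and 9190 CPM for KO, or 11373 ± 797 and 9108 ± 166 CPM (SD, n = 3), 19.9% lower in KO. The groups did not overlap, and the order was the same without any TMM factor: the genes took 1.197%, 1.03% and 1.03% of all counts in WT and 0.900%, 0.964% and 0.948% in KO. By these shares the difference was smaller than 19.9%, since TMM scaling raised the WT sums and lowered the KO sums. The percentages given for other CPM sums include the same scaling. The exact 95% binomial interval of each share was at most 1.21% and at least 0.888%. It takes every read as a separate draw and leaves out the spread between libraries. Where many reads stand for 1 molecule equivalent, it is too narrow for counting error as well. The 5 most abundant genes (Top2a, Cenpe, Mki67, Cdk1 and Anln) made up 51.3% of the WT sum and 49.7% of the KO sum. The other 34 summed to 5536 ± 95.3 CPM in WT and 4581 ± 225 CPM in KO, 17.2% lower, again with no overlap. No p-value is given for these sums, since the genes were listed with earlier results known.

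No single member passed the test of KO against WT. By edgeR's quasi-likelihood test with Benjamini-Hochberg adjustment over 8200 genes 0 of 39 were called (lowest adjusted p = 0.524). Of all tested genes 0.402% (33) were called in either direction and 0.22% (18) lower in KO. DESeq2 also called 0 of 39, against 237 of the 8200 genes. At an unadjusted p under 0.05 there were 3 members, Aurka, Cenpe and Bub3, or 7.69%, near the 6.49% of all tested genes. All 3 were lower in KO, as were 3.79% of all tested genes at that p. In TMM-scaled CPM every KO library lay below every WT library for 3 members, Aurka, Top2a and Ckap2l (7.69%, near the 7.93% of all tested genes). For no member did every KO library lie above. The separation of Top2a is lost with library totals alone. What set the members apart from the table as a whole was a small common lean: 32 of 39 fold changes were negative (82.1%), against 51% of all tested genes, with a median of -0.25 on the log2 scale against -0.02 over all genes. Scaled by library totals alone, the median over all genes moved by 0.11, to 0.09, and the members stood at -0.13 with 28 of 39 negative. These genes vary together with the cell cycle, so 32 negative signs are not 32 separate observations.

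**Figure D1:**
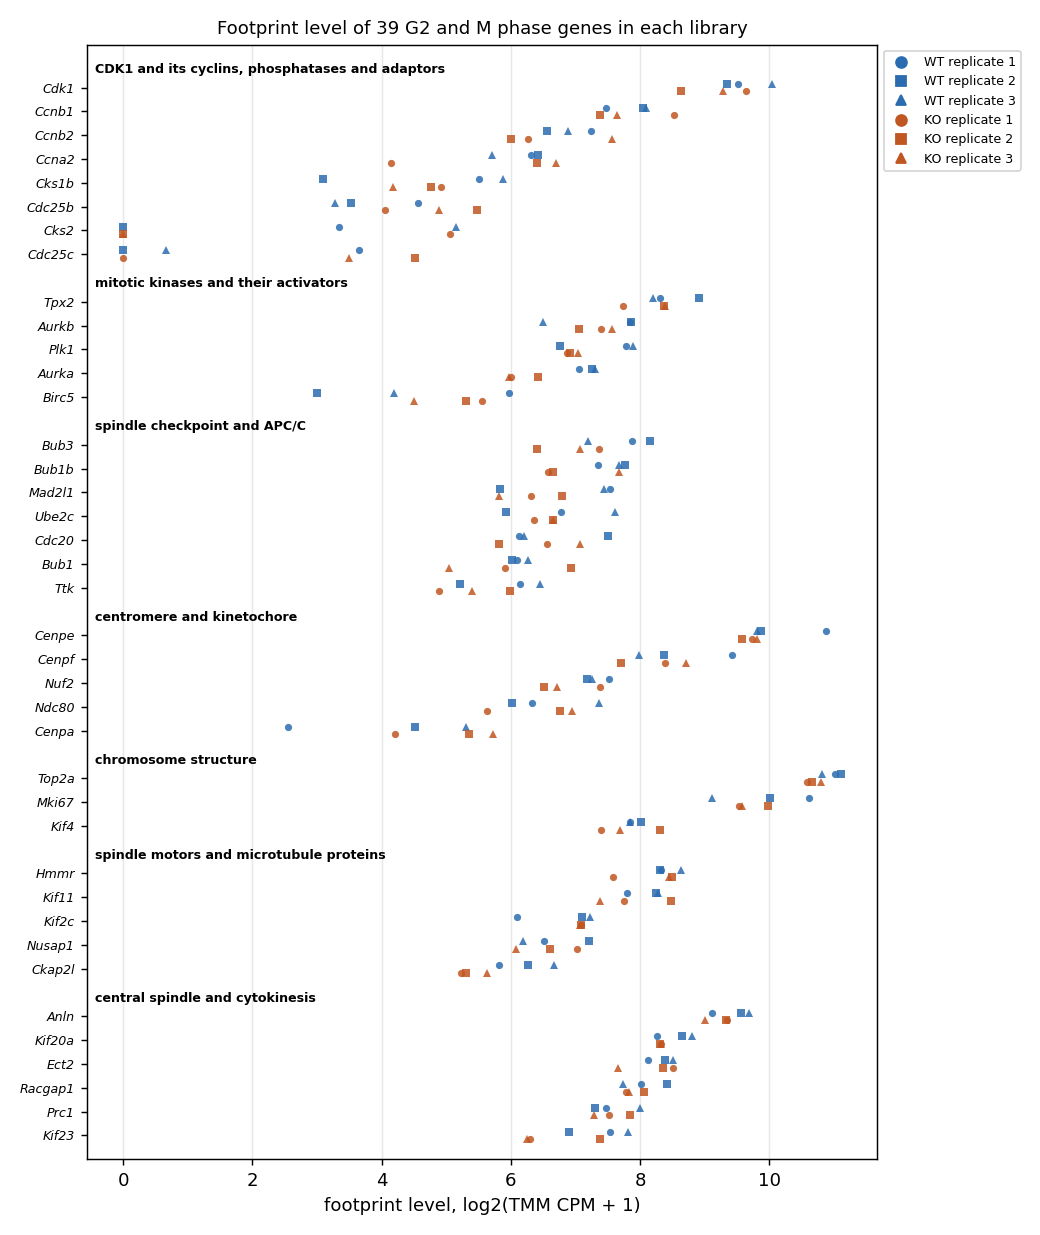
Footprint level of each of the 39 genes in each of the 6 libraries, as log2(CPM + 1) after TMM scaling, grouped by role; blue points are WT and orange points KO, and the marker shape gives the replicate number. Most genes have WT and KO points interleaved, and only for Aurka, Top2a and Ckap2l do all 3 KO points lie below all 3 WT points.

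CDK1 and its partners were described first, as the engine of mitotic entry. Cdk1 (ENSMUSG00000019942, minus strand of chromosome 10, 69335146 to 69352938 in GRCm38) stood at 729, 652 and 1058 CPM in WT libraries and 797, 398 and 620.5 CPM in KO libraries. The groups overlapped, since KO replicate 1 lay above 2 WT libraries. Its log2 fold change was -0.43 (SE 0.26, 95% interval -0.98 to 0.13). Ccnb1, cyclin B1 (ENSMUSG00000041431), stood at 177.5, 264 and 272 CPM in WT libraries and 369, 166 and 199 CPM in KO libraries, with KO replicate 1 the highest and KO replicate 2 the lowest of all 6. Its fold change was the nearest to 0 of the cyclins, at 0.04 (SE 0.34, interval -0.68 to 0.76), which excludes a 2-fold change either way. Ccnb2, cyclin B2, averaged 120 ± 28.7 CPM across WT and 109 ± 69.5 CPM across KO, and Ccna2, cyclin A2, 71.6 ± 17.8 and 67.7 ± 45.1 CPM. In both, the KO libraries spread widely, with Ccna2 at 16.8, 83.9 and 102 CPM. The phosphatase genes had few fragments. Cdc25b had 37, 21 and 15 counts in WT against 40, 102 and 92 for KO, and Cdc25c 19, 0 and 1 in WT against 0, 51 and 33 for KO. Their log2 fold changes of 1.07 (SE 1.42) and 1.39 (SE 2.64) have intervals that span 0 widely. Cks1b and Cks2 encode small adaptors of cyclin-dependent kinases. Cks1b had 73, 15 and 100 counts in WT against 75, 61 and 55 for KO. Cks2 had 15, 0 and 60 in WT against 83, 0 and 0 for KO, below the modal count in 3 libraries.

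Among the mitotic kinases the Aurora A gene showed the largest difference relative to its error of any member. Aurka (ENSMUSG00000027496, minus strand of chromosome 2, 172356190 to 172370535) encodes the kinase of centrosomes and spindle poles and stood at 133, 152 and 157 CPM in WT libraries and 62.8, 84.8 and 62.05 CPM in KO libraries. The 3 KO libraries lay clearly below the 3 WT libraries. The log2 fold change was -1.07 (SE 0.39, interval -1.91 to -0.24, unadjusted p = 0.0156 by edgeR's quasi-likelihood test), and it did not pass over all genes (adjusted p = 0.524). Tpx2, which activates Aurora A on microtubules, had overlapping groups at 315, 482 and 294 CPM in WT libraries and 211, 329 and 334 CPM in KO libraries (log2 fold change -0.32, SE 0.28). Plk1, the Polo-like kinase, stood at 219, 107 and 236 CPM in WT libraries and 116, 120.3 and 130.3 CPM in KO libraries. The KO libraries were close together, and WT replicate 2 was lower than all of them (log2 fold change -0.62, SE 0.37). Aurkb, the kinase of the chromosomal passenger complex, averaged 183 ± 81.7 CPM across WT and 163 ± 29.2 CPM across KO, and its partner Birc5, survivin, 28.6 ± 28.9 and 35.4 ± 12.5 CPM, so neither differed beyond its spread. Summed over the 5 genes, levels were 956.5, 980 and 793 CPM in WT and 603, 704 and 737 CPM in KO, with no overlap. By library totals alone KO replicate 3 lay slightly above WT replicate 3, so this separation rests on the TMM scaling.

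The spindle checkpoint and APC/C genes had the largest proportional difference in summed level of the 7 roles. Their 7 members summed to 896, 897 and 950 CPM in WT and 598, 631 and 696.5 CPM in KO (914 ± 30.8 and 642 ± 50.3 CPM, 29.8% lower, no overlap). Bub3 (ENSMUSG00000066979), a checkpoint protein that binds kinetochores, contributed most to this. It stood at 234, 285 and 145 CPM in WT libraries and 163.5, 83.9 and 133 CPM in KO libraries, so that KO replicate 1 overlapped WT replicate 3. Its log2 fold change was -0.80 (SE 0.36, unadjusted p = 0.0434 and adjusted p = 0.723 by edgeR). Mad2l1, the checkpoint protein that inhibits CDC20, averaged 138 ± 71.3 CPM across WT and 80.9 ± 26.9 CPM across KO, and Bub1b, BUBR1, 193 ± 28.2 and 132 ± 60.7 CPM. Both had log2 fold changes with intervals that reach 0, -0.77 (SE 0.49) and -0.55 (SE 0.37). Bub1, the kinase that recruits other checkpoint proteins, did not lean the same way, at 67.5, 63.96 and 76.3 CPM in WT libraries and 59.3, 121 and 32.0 CPM in KO libraries (log2 fold change 0.03, SE 0.56). Ttk, the checkpoint kinase MPS1, was low at 64.01 ± 25.6 and 43.98 ± 17.2 CPM. Of the APC/C arm, the activator Cdc20 averaged 107 ± 63.3 and 93.7 ± 38.9 CPM and the ubiquitin-conjugating enzyme Ube2c 121 ± 68.3 and 93.5 ± 11.01 CPM, both with overlapping groups.

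Of the centromere and kinetochore genes, Cenpe carried most of the counts. Cenpe (ENSMUSG00000045328), a kinesin that links chromosomes to microtubules, stood at 1876, 938 and 893 CPM in WT libraries and 849, 763 and 897 CPM in KO libraries. WT replicate 1 was far above the other 5 libraries, which lay between 763 and 938 CPM. The log2 fold change was -0.56 (SE 0.25, unadjusted p = 0.0417 and adjusted p = 0.713 by edgeR), and without WT replicate 1 it was -0.13. Cenpf, a large coiled-coil protein of the outer kinetochore, had the same order within WT, at 684, 329 and 251 CPM against 335, 207 and 418 CPM in KO (log2 fold change -0.40, SE 0.35), and its sign turned without WT replicate 1, to 0.14. Nuf2 and Ndc80 are subunits of the complex that grips microtubules. Nuf2 stood at 183, 143 and 152 CPM in WT against 165, 90.3 and 104 CPM for KO, and Ndc80 102 ± 53.3 and 93.2 ± 39.2 CPM. Cenpa, the centromeric histone H3 variant, had few fragments, namely 8, 44 and 67 in WT against 45, 93 and 167 for KO (log2 fold change 0.73, SE 1.14).

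Top2a gave the most precise value of all members. Top2a (ENSMUSG00000020914, minus strand of chromosome 11, 98992943 to 99024189) encodes the topoisomerase that untangles sister chromatids and had 3112 to 5734 counts per library. It stood at 2065, 2217 and 1799 CPM in WT libraries and 1542, 1624 and 1779 CPM in KO libraries. The groups did not overlap after TMM scaling, although KO replicate 3 was only just below WT replicate 3. By library totals alone KO replicate 3 (5734 of 3126208 counts) lay above WT replicate 3 (3112 of 1811225), so the separation rests on the scaling. The log2 fold change was -0.30 (SE 0.16, interval -0.63 to 0.03, edgeR adjusted p = 0.871), so a 2-fold fall was outside the interval. Mki67, the chromosome coating protein Ki-67 used as a proliferation marker, stood at 1570, 1026 and 554 CPM in WT libraries and 741, 1008 and 763 CPM in KO libraries. The WT libraries spread widely and enclosed all KO libraries (log2 fold change -0.33, SE 0.29), and the sign turned without WT replicate 1, to 0.08. Kif4, a chromosome-bound kinesin, averaged 238.5 ± 16.8 CPM across WT and 229 ± 77.5 CPM across KO (log2 fold change -0.06, SE 0.30).

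The spindle motors and microtubule proteins differed little in sum. Their 5 members added up to 753, 977 and 1026 CPM in WT and 708, 985 and 761 CPM in KO, with overlap. Ckap2l (ENSMUSG00000048327), a spindle pole protein, was the exception within the role, at 55.3, 75.95 and 100.6 CPM in WT libraries and 36.7, 38.5 and 48.4 CPM in KO libraries. Its groups did not overlap, but at 4.09 molecule equivalents the log2 fold change of -0.91 had an SE of 0.56 and an interval from -2.10 to 0.29. Kif11, the kinesin that pushes spindle poles apart, averaged 277.5 ± 48.2 CPM across WT and 245 ± 98.4 CPM across KO. Kif2c, a microtubule-depolymerising kinesin, was one of the 7 members with a positive fold change (0.19, SE 0.39), from 118 ± 44.0 to 135 ± 1.30 CPM. Hmmr averaged 343.5 ± 45.5 and 299.5 ± 94.4 CPM, and Nusap1, which bundles spindle microtubules, 103 ± 38.9 and 97.3 ± 31.6 CPM.

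All 6 genes of the central spindle and cytokinesis had negative fold changes, from -0.73 to -0.06, and none passed. Kif23, the kinesin of centralspindlin, stood at 184, 118 and 224 CPM in WT libraries and 77.6, 166 and 75.1 CPM in KO libraries, with KO replicate 2 inside the WT range (log2 fold change -0.73, SE 0.41). Its partner Racgap1, the GTPase-activating subunit of the same complex, averaged 271 ± 66.0 CPM across WT and 237 ± 25.6 CPM across KO (log2 fold change -0.20, SE 0.28). Anln, anillin of the contractile ring, stood at 555, 758 and 821 CPM in WT libraries and 648, 639 and 512 CPM in KO libraries, with overlap (log2 fold change -0.25, SE 0.21, interval -0.70 to 0.21). Kif20a, a kinesin of the midzone, gave 305, 399 and 447 CPM in WT and nearly equal values of 319, 316 and 319 CPM in KO (log2 fold change -0.27, SE 0.24). Ect2, which activates RhoA at the cleavage furrow, averaged 324 ± 44.1 and 296 ± 83.6 CPM, and Prc1, the microtubule crosslinker of the midzone, 196.5 ± 51.7 and 188.5 ± 36.8 CPM.

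**Figure D2:**
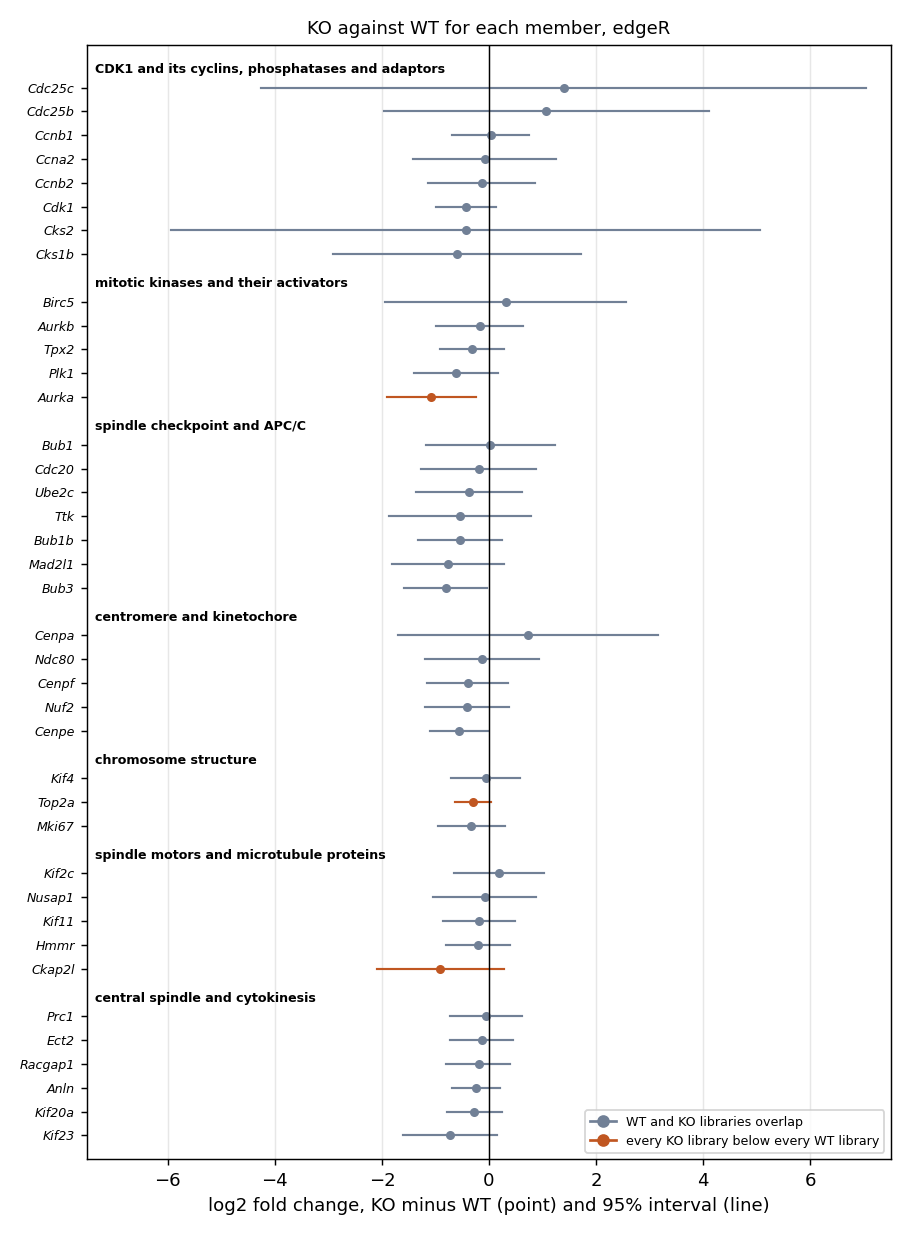
Log2 fold change, KO minus WT, of each of the 39 genes with its 95% interval from edgeR, grouped by role and ordered by fold change within it. Orange marks the 3 genes with every KO library below every WT library in TMM-scaled CPM. Of the 39 points 32 lie left of 0, while 36 of the 39 intervals include 0.

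Divided by the length of the coding sequence, the members spanned a wide range of footprint density, and their order was nearly the same in both groups. In WT the densest was Cdk1 at 912.5 ± 242 CPM per coding kilobase, followed by Top2a at 442 ± 46.1 (SD, n = 3). With the longest coding transcript of each gene, Cdk1 ranked first and Top2a next in each of the 6 libraries. The next 4 were Bub3 at 226 ± 72.3, Ube2c at 226 ± 127, Mad2l1 at 224 ± 116 and Anln at 211.5 ± 41.3 CPM per kilobase, which did not differ beyond their spread. The thinnest were Ttk at 25.7, Bub1 at 21.8, Cdc25b at 8.04 and Cdc25c at 3.02 CPM per kilobase. The long genes Mki67 and Cenpf, with coding lengths of 9531 and 8991 bases, ranked high by total level but stood at 110.2 and 46.9 CPM per kilobase in WT. In KO, Cdk1 stood at 679 ± 225 and Top2a at 360 ± 26.2, and 9 of the 10 densest genes were the same. The order depends on the transcript taken for each gene: with the shortest coding transcript in place of the longest, 3 of the 10 densest genes in WT were kept. The 2 top ranks were then lost: Racgap1 stood at 2556 CPM per kilobase in WT, above Cdk1 at 1351 and Top2a at 442.

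**Figure D3:**
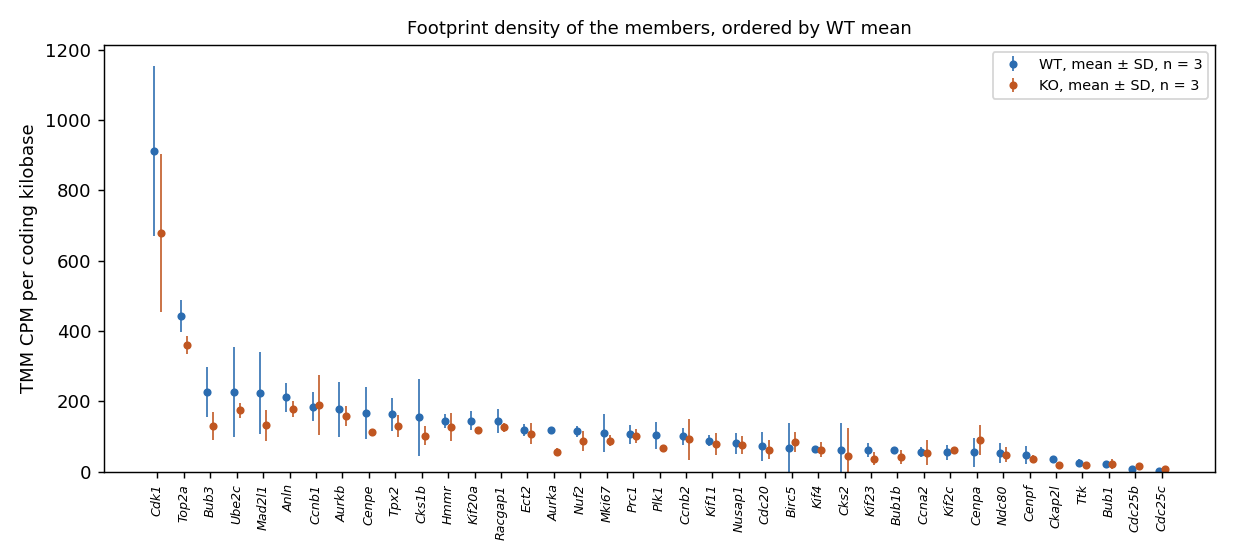
Footprint density in CPM per coding kilobase for each of the 39 genes, ordered by the WT mean; points are means and lines SD over 3 libraries, blue for WT and orange for KO. With the longest coding transcript taken for each gene, Cdk1 and Top2a stand above all others in both groups. KO means lie below WT means for 32 of the 39.

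The error of each difference followed how many fragments the gene had. Standard errors of the log2 fold change ran from 0.16 for Top2a, at 132 molecule equivalents on average, to 2.64 for Cdc25c, at 0.49. Over the 29 members with at least 5 molecule equivalents the median SE was 0.35, and over the 10 others 1.07. Intervals lay wholly within a 2-fold change for 14 of 39 members and reached beyond it for the other 25. For those 25 a 2-fold difference lay within the interval at this depth. Of the 29 better covered members 27 had negative fold changes (median -0.27).

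**Figure D4:**
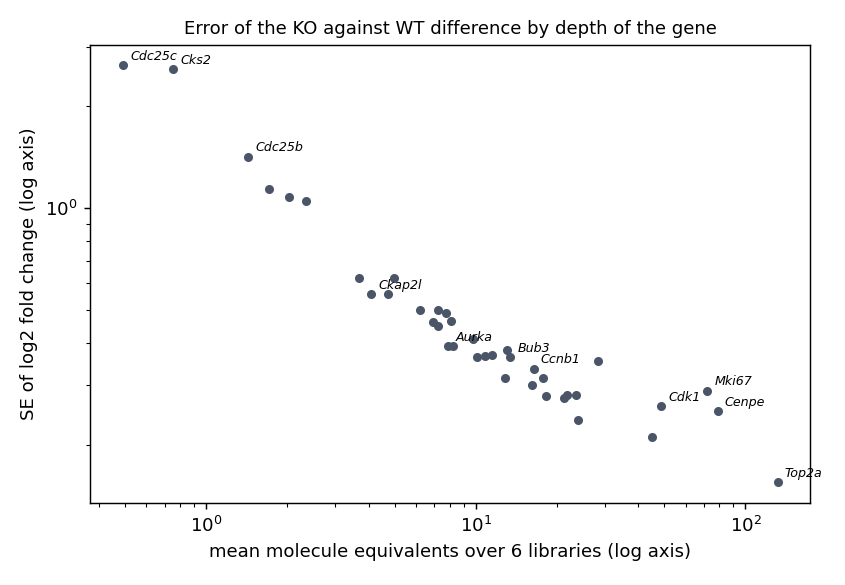
Standard error of the log2 fold change against mean molecule equivalents over the 6 libraries for the 39 genes, both axes logarithmic, with 1 point per gene. The error decreases with depth, from 2.64 for Cdc25c to 0.16 for Top2a.

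Several members have retrocopies elsewhere in the genome, which matters for fragments of about 28 bases. For each member every stretch of 28 bases (28-mer) of the longest coding sequence was looked up in the GRCm38 chromosomes outside the gene's own locus. No 28-mer was found elsewhere for 13 members, among them Ccna2, Bub1, Bub1b, Cenpf and Anln, and under 5% for 23. The share was 20% or more for 10 members, led by Cks2 (100%, 210 of 210 28-mers) and Ccnb1 (92.4%, 1167 of 1263), followed by Cks1b (38.1%), Cdc20 (38.0%), Mad2l1 (32.0%) and Ube2c (25.5%). For Cks2 every 28-mer lay also in the processed pseudogene Gm15452 on chromosome 1, and for Ccnb1 1016 lay in Ccnb1-ps on chromosome 7. The coding sequences of the paired adaptors Cks2 and Cks1b are printed below. Capitals mark bases inside a 28-mer that also occurs elsewhere, and lower case marks bases outside any. Each repeated 28-mer puts all its bases in capitals, so capitals cover far more of Cks1b than its 38.1% share of repeated 28-mers. For Ccnb1 the longest stretch whose 28-mers were not found elsewhere (coding bases 351 to 405, 28 28-mers) is shown; it is in lower case throughout and its letters carry no marking, since 28-mers that reach past its ends can occur elsewhere.
Cks2: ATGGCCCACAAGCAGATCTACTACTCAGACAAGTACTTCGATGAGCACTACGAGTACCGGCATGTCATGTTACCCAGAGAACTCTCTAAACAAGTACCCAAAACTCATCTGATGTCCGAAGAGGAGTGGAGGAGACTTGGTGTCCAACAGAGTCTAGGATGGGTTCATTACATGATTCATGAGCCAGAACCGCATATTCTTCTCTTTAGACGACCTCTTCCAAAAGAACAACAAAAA
Cks1b: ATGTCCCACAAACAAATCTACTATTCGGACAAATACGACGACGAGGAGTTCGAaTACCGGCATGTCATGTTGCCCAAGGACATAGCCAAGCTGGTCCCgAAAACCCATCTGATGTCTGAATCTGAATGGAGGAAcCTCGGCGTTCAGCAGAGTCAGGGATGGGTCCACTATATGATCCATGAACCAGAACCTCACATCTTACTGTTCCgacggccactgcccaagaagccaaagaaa
Ccnb1: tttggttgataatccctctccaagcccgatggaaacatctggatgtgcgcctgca

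Few counts stood in the pseudogene rows, which does not show where fragments with several matches went. Of 34 pseudogene rows that share over 20 28-mers with a member, the sum over 6 libraries was 159 counts, 122 of them in 2700099C18Rik, a copy of part of Ndc80, against 134987 counts in the 39 member rows. Of other kinds of rows, Mpp7, which shares 100 28-mers with Mad2l1, had 157 counts. Ccnb1 had 292 to 946 counts in each library although 92.4% of its 28-mers are repeated elsewhere, and no copy of it had more than 5 counts over the 6 libraries. How the counting treated fragments with several matches is not stated, and the values of Cks2, Ccnb1, Cks1b and Cdc20 are uncertain for that reason. Some members overlap a gene of the opposite strand, such as Ccna2 with Exosc9 (1399 counts over 6 libraries), Kif4 with Pdzd11 (1411), Cdc20 with Elovl1 (1336) and Kif20a with Cdc23 (586), and the strand setting is not given either. Over the 29 members with under 20% of 28-mers elsewhere the median log2 fold change was -0.25, with 23 negative.

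**Figure D5:**
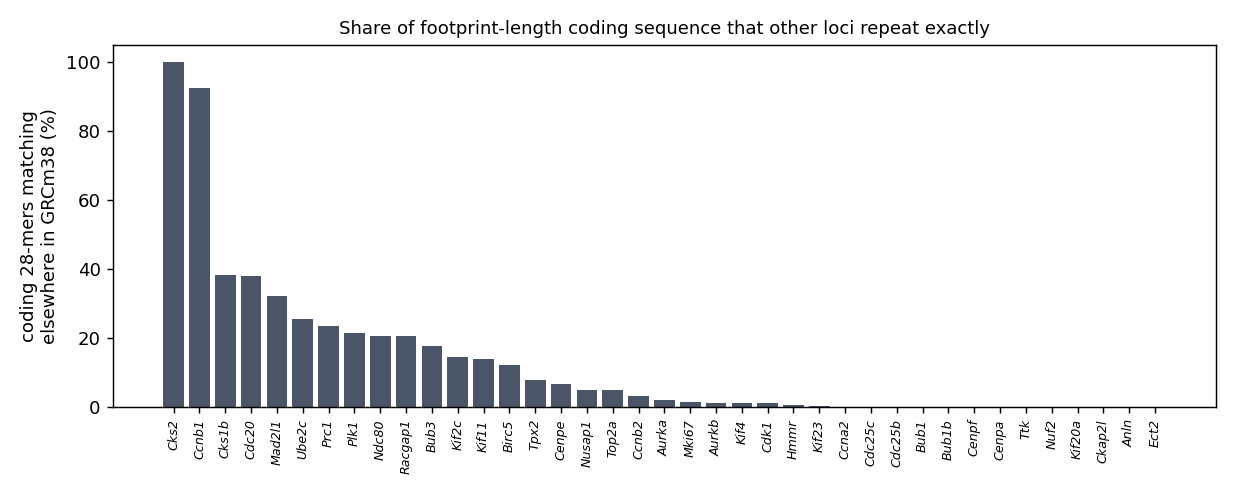
Percentage of 28-mers of each gene's longest coding sequence that match exactly elsewhere in the GRCm38 chromosomes, 1 bar per gene in falling order. Cks2 at 100% and Ccnb1 at 92.4% stand apart from the other 37, which are at 38.1% or less.

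The promoters of the members shared short sequence elements that the choice of genes did not use. RefSeq promoter windows on GRCm38.p6, 250 bases before to 50 after the start, were at hand for 34 of the 39 members; Ccna2, Cdc25c, Aurkb, Tpx2 and Kif20a had no entry. The letters TTTGAA, the usual core of the cell cycle genes homology region, were found on either strand in 25 of 34 members (73.5%) against 20.2% of 27025 genes with a window. The variant TTTAAA was in 9 (26.5%) against 14.9%, and CCAAT in 27 (79.4%) against 41.1%. Both CCAAT and one of the other letters were in 24 (70.6%) against 12.2%. A match is a description of the letters and does not show that a factor binds. The windows of the 3 members with non-overlapping groups and of Cdk1 and Ccnb1 are printed 5′ to 3′ on the gene's strand, with each match to 1 of these 3 motifs, or to its reverse complement, in capitals. They are Aurka (chr2:172370521-172370820, minus), Top2a (chr11:99024140-99024439, minus), Ckap2l (chr2:129297163-129297462, minus), Cdk1 (chr10:69352863-69353162, minus) and Ccnb1 (chr13:100786437-100786736, minus).
Aurka: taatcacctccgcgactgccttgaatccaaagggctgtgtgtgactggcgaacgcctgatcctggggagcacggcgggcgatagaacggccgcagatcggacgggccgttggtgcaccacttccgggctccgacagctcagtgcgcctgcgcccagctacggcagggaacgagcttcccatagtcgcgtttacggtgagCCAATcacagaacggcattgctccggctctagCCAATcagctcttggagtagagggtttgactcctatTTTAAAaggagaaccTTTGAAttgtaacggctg
Top2a: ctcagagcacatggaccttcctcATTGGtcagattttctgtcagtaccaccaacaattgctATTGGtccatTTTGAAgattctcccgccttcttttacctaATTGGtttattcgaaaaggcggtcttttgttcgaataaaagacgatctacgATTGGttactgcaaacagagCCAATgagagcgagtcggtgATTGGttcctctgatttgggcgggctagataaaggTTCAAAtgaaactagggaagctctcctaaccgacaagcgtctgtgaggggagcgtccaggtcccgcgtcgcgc
Ckap2l: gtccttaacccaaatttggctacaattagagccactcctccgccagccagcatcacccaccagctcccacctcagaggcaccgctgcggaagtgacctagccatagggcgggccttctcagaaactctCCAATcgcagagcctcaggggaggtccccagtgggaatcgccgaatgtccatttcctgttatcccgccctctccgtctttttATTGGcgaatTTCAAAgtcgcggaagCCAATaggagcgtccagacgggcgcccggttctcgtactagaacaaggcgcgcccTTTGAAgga
Cdk1: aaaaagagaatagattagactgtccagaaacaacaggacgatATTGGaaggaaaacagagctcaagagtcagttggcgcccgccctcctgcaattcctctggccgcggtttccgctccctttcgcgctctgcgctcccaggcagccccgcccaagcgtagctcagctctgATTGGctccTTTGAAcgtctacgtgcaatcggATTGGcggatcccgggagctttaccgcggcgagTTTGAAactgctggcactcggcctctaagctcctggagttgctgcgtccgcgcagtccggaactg
Ccnb1: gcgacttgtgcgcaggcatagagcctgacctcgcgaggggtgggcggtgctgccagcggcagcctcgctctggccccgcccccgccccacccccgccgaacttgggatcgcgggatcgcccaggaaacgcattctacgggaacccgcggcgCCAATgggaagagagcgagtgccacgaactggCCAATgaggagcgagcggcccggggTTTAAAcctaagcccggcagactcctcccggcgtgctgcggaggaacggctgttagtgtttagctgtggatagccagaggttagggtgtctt

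Top2a held 6 CCAAT boxes in its window, the most of the 5 printed, and Ccnb1 held the TTTAAA variant but not the usual core. Aurka held both. Aurka and Ccnb1, each with TTTAAA and 2 CCAAT boxes, stood at log2 fold changes of -1.07 and 0.04.

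The wider machinery of mitosis was taken from 5 further lists with 137 genes, 127 of them tested. By edgeR's quasi-likelihood test 0 of 127 were called in either direction, and 12 (9.45%) had an unadjusted p under 0.05 against 6.49% of all tested genes. DESeq2 called 4 of 127, a share near that of all tested genes (237 of 8200). Every KO library lay below every WT library for 16 of them (12.6%, against 7.93% of all tested genes) and above for 9 (7.09%, against 6.94%). The proteins that act beside the members leaned the same way: over other spindle and cytokinesis proteins 24 of 36 fold changes were negative (median -0.21), over other centromere and kinetochore proteins 21 of 32 (-0.25), and over condensin and cohesin 15 of 19 (-0.14). The APC/C, separase and checkpoint partners leaned the other way, with 14 of 22 positive (median 0.20), and the regulators of entry were even, at 9 and 9.

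The genes named next are the 3 tested genes with the smallest p in each list. Spag5, a spindle protein also called astrin, had 259, 442 and 519 counts in WT against 158, 308 and 214 for KO, at 226 ± 71.4 and 86.6 ± 39.3 CPM (log2 fold change -1.39, SE 0.40; adjusted p = 0.286 by edgeR and 0.0177 by DESeq2). Kif18b, a kinesin that shortens astral microtubules, had 155, 117 and 59 in WT against 43, 2 and 16 for KO (-3.04, SE 1.12), of which 2 and 16 lay below the modal counts of 46 and 60, so the size of this difference is uncertain. Dlgap5, a spindle protein, averaged 238 ± 28.9 and 139 ± 21.3 CPM. Among kinetochore genes Spc24, a partner of Ndc80 and Nuf2, averaged 136 ± 35.2 and 63.6 ± 26.7 CPM, and Knl1, the scaffold that binds Bub1 and Bub3, 148 ± 18.1 and 76.5 ± 34.5 CPM. Hjurp, the chaperone of Cenpa, averaged 178 ± 36.8 and 113 ± 34.1 CPM. Espl1, separase, which cuts cohesin at anaphase, averaged 141 ± 15.8 and 76.0 ± 12.5 CPM, and the cohesin subunit Rad21 442 ± 35.7 and 312 ± 33.7 CPM. The condensin subunit Ncapd3 averaged 118 ± 40.4 and 56.2 ± 24.9 CPM and the cohesin subunit Smc3 501 ± 186 and 328 ± 82.7 CPM, with overlap. Anapc2, an APC/C subunit, averaged 185 ± 36.4 and 266.5 ± 95.4 CPM, also with overlap. Mad2l1bp, which inactivates MAD2, had 43, 117 and 42 in WT against 0, 0 and 31 for KO, too few for a firm size. For Spag5, Kif18b, Dlgap5, Spc24, Knl1, Hjurp, Espl1, Rad21 and Mad2l1bp the groups did not overlap in CPM, and edgeR called none of them. By library totals alone KO replicate 3 of Hjurp lay inside the WT range.

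Of the 18 tested regulators of entry, the 3 with the smallest p had positive fold changes, while others of the list did not. Wee1 and Pkmyt1, kinases that inhibit CDK1, stood at -0.12 (SE 0.64) and -0.35 (SE 0.72). Mybl2, a transcription factor of G2 and M genes, stood at -2.09 (SE 1.81, interval -5.95 to 1.77) with overlapping groups. Mybl2 had 58, 129 and 20 counts in WT against 0, 1 and 82 for KO, below the modal count in 3 libraries. The size of its difference is therefore uncertain. Cdkn1a, the cyclin-dependent kinase inhibitor p21, had 11, 90 and 73 counts in WT against 396, 285 and 419 for KO (log2 fold change 2.11, SE 0.61; adjusted p = 0.297 by edgeR and 0.00888 by DESeq2). Gadd45a, a stress-induced inhibitor of CDK1, had 0, 3 and 1 in WT against 90, 33 and 199 for KO, so it was nearly without fragments in WT and no fold is given. Foxm1, a transcription factor that activates G2 and M genes, had 40, 60 and 50 in WT against 235, 126 and 224 for KO (log2 fold change 1.37, SE 0.62, edgeR adjusted p = 0.734). In all 3 the KO libraries lay above the WT libraries. Their mean molecule equivalents were 4.92, 1.06 and 3.15, which is low.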

How the data were processed

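The labels' protocols state that Cutadapt removed adapters, that fragments between 25 and 34 nt were kept, and that Bowtie took out those matching rRNA or tRNA. Genome alignment used HISAT2 against GRCm38 and transcriptome alignment Bowtie, per the labels' protocols. Per the submitters' processing notes featureCounts and DESeq2 were also used, with no role or version named. Which annotation and strand setting were used, and how multiple matches and duplicates were handled, is not given in these sources. The authors deposited whole-number counts per Ensembl gene, 1 column per library, not normalized, and 53360 of 53465 identifiers matched GENCODE M21.

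From these counts edgeR 4.0.16 (R 4.3.3) gave quasi-likelihood tests (robust, TMM factors, filterByExpr by group, Benjamini-Hochberg over 8200 genes, called under 0.05); the SE is the fold change divided by the square root of F, and the common biological coefficient of variation was 0.99. The modal count was the highest interior peak of the smoothed histogram of gene counts from 8 to 150 (bandwidth 3). Coding lengths exclude the stop codon. DESeq2 1.42.0, its size factors in edgeR, library totals, dropping the count filter, requiring 50 counts in 3 libraries, the replicate block, molecule equivalents in place of counts and leaving out each library were tried. Python 3.11.15, pandas 2.3.3, numba 0.67.0 and matplotlib 3.10.9 were used for sequences and plots.

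The members and lists were chosen with earlier results of these data known. All members are described; values per library are given in full for members that were called, that had non-overlapping groups, that had 1 of the 8 smallest p or 1 of the 6 highest mean levels, and for some others chosen after their values were seen. From each wider list the rule took the 3 tested genes with the smallest p.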

Additional observations from a re-analysis of the deposited data

How the results depend on the processing

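No member that was tested was called under any alternative setting tried (17 of 39 were tested on molecule equivalents and 36 with at least 50 counts in 3 libraries), and the median over those tested stayed negative, from -0.32 to -0.13. Of 39 members, 26 were negative without KO replicate 3, against 32. The count over all tested genes was 33 and became 237 with DESeq2, 91 with no count filter and 110 of 968 on molecule equivalents, and 6 to 29 without single libraries (the lowest, 6, without either WT replicate 2 or WT replicate 3, and 15 when KO replicate 1 was dropped, 20 for KO replicate 2, 18 for KO replicate 3). The subsets of members by molecule equivalents and by 28-mers elsewhere were chosen after seeing the data. In the wider lists the 0 called became 4 with DESeq2 and 1 with no count filter. Nothing in the labels says that a replicate number pairs libraries, and same-numbered libraries deviated together at r = -0.017, -0.003 and -0.007. With the replicate number as a block 38 genes were called over all and 0 members, the members' median was -0.24, and the signs of Ccnb1 (-0.04) and Bub1 (-0.17) turned. With library totals Ccna2 (0.04), Kif4 (0.06), Nusap1 (0.03) and Prc1 (0.05) turned, as did Prc1 on molecule equivalents (0.11).

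Leaving out 1 library at a time turned the sign of 20 members: Aurkb from -0.50 to 0.03, Birc5 from -0.16 to 1.54, Bub1 from -0.60 to 0.37, Ccna2 from -0.51 to 0.39, Ccnb1 from -0.38 to 0.26, Ccnb2 from -0.80 to 0.16, Cdc20 from -0.54 to 0.41, Cenpf from -0.66 to 0.14, Cks2 from -8.00 to 1.23, Ect2 from -0.30 to 0.08, Hmmr from -0.34 to 0.05, Kif11 from -0.54 to 0.04, Kif2c from -0.09 to 0.39, Kif4 from -0.35 to 0.13, Mki67 from -0.63 to 0.08, Ndc80 from -0.39 to 0.38, Nusap1 from -0.33 to 0.27, Prc1 from -0.21 to 0.17, Racgap1 from -0.35 to 0.01 and Ube2c from -0.70 to 0.15. The cause was not tested. Across all settings 19 of 39 members kept their sign. Of the 39, 6 averaged under 3 molecule equivalents.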

Other observations

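Over the 6 libraries, the tested genes outside the list with at least 100 CPM whose log2 CPM followed the mean standardised profile of the members most closely were Pmpca, a mitochondrial processing peptidase subunit (r = 0.99), Etf1, a translation termination factor (0.98), Polr2b, a subunit of RNA polymerase II (0.97), Cs, citrate synthase (0.96), and Tgm2, a transglutaminase (0.95). Tgm2 fell in KO, from 250 ± 8.19 to 1.66 ± 1.72 CPM (edgeR adjusted p = 0.000206), and for the other 4 edgeR called no difference. They were picked as the highest of all such genes over 6 points, so the correlations describe these libraries and are no test. The members' own mean standardised level was 0.26, 0.13 and 0.38 in WT and -0.41, -0.08 and -0.28 in KO. Across the 39 members, which are not independent replicates, log CPM of any 2 libraries correlated at 0.75 to 0.94, against 0.54 to 0.71 across all tested genes. The highest pair within KO was replicates 2 and 3 (0.93), and the highest between groups was WT replicate 2 with KO replicate 3 (0.94). Across all tested genes the highest pair was WT replicates 1 and 2 (0.71).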
